A study of Homo sapiens with 5 samples.

Results

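Ribosome footprints over 556 transcript rows, lying next to each other in the deposited tables, were measured in 5 libraries of HEK293T cells. HEK293T is an established human embryonic kidney line. The rows were chosen by an earlier reading of these same tables, in which this stretch of the row order stood higher in the library of QTRT1 knockout cells than in the others. A member is any row from 157090 to 159053, counted from 1, that carries a length and sums to at least 100 counts over the 5 libraries. Of 48695 rows in the tables that carry a length and reach that count, the members are 556, or 1.14%. The cells were of 3 genotypes: QTRT1 KO with 1 library, QTGAL KO with 2 libraries and QTMAN KO with 2 libraries, all in the same line and with no further treatment in the labels. Libraries of unmodified HEK293T cells were not analysed here, so every value below compares knockouts with each other. The labels do not say whether the 2 libraries of a genotype came from separate cultures or clones, so the tests measure only the spread between libraries, which may be technical.

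Queuosine is a hypermodified form of guanosine found at the anticodon wobble base of tRNAs that read tyrosine, histidine, asparagine and aspartate codons. QTRT1 catalyses the exchange of guanine for queuine, the base of queuosine, in these tRNAs. QTGAL adds galactose to queuosine in the tyrosine tRNA and QTMAN adds mannose to it in the aspartate tRNA, so QTRT1 loss takes away the substrate of both. Ribosome profiling sequences the short mRNA fragments that ribosomes protect from nuclease, and the number of footprints on a coding sequence reflects both how much of the mRNA is present and how often it is translated. No RNA levels were measured beside these footprints, so the amount of mRNA and its translation cannot be told apart in any value here.

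The stretch from row 157090 to row 159053 holds 1964 rows, of which 926 carry no length. Of the 1038 rows with a length, 113 had no count in any library, 369 had 1 to 99 counts and 556 were members. The length was read as codons, since 33.1% of the lengths in the tables are multiples of 3. The members had a median length of 273 codons, from 29 to 3334, against 279 codons for the other eligible rows. Their median summed count was 489.5, against 530 elsewhere, and reached 23911. Per length, the members had a median level of 1.52 CPM per 100 codons, where CPM is the footprint count scaled to the library's size, against 2.08 elsewhere. The tables name transcripts only by identifier and no source used here pairs these identifiers with genes, so members are named by row number and length, and the targeted genes could not be looked up as a check of the genotypes.

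Members are not independent of each other, because isoforms of a gene share footprints. The 556 members held 490 distinct sets of 5 counts, and 31 pairs of adjacent members had identical counts in all 5 libraries. Adjacent members whose counts per codon lay within 2-fold were therefore joined into runs, and the row with the most counts stood for its run. This gave 85 runs in the block, among 8669 over the tables. Runs are not fully separate either, as the runs of rows 158688 and 158691 had the same counts in all 5 libraries. The runs had a median of 4 rows, 12 had 1 row, and the largest had 53 rows.

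The libraries held 12002044 to 25291912 counts, and the QTRT1 library, with 13918194, was the second shallowest. The members took up 1.09% of all counts in the QTRT1 library. They took up 0.840% and 0.885% in the QTGAL libraries, replicates 1 and 2, and 0.831% in each of the QTMAN libraries. The QTRT1 library thus stood above all 4 others in this share, and those 4 lay close together. The labels mention no molecular identifiers, so counting errors given here cover the counting of reads only.

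For each row, the log2 ratio is that of CPM in the QTRT1 library to the median CPM of the other 4 libraries, with 0.5 CPM added to both. Since the members were chosen for this contrast, the ratio is a description and was not tested. The median over the 556 members was 0.32, a fold of 1.25, with quartiles of 0.11 and 0.52 and a range from -0.43 to 0.93. The ratio was above 0 in 478 members (86.0%) and at or below 0 in 78. Over the other 48139 eligible rows the median was -0.01, with 48.3% above 0. The width of the distribution was alike, with an interquartile range of 0.41 in the members and 0.38 elsewhere, and 345 members lay within 0.25 of the member median. The counting error was approximated by that of the QTRT1 count over the summed count of the other 4 libraries, without the added 0.5 CPM. Its median over members was 0.17, so part of the spread between members lies within counting error. Taking 1 row per run, the median was 0.36, a fold of 1.28, and 75 of the 85 runs were above 0.

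**Figure D1:**
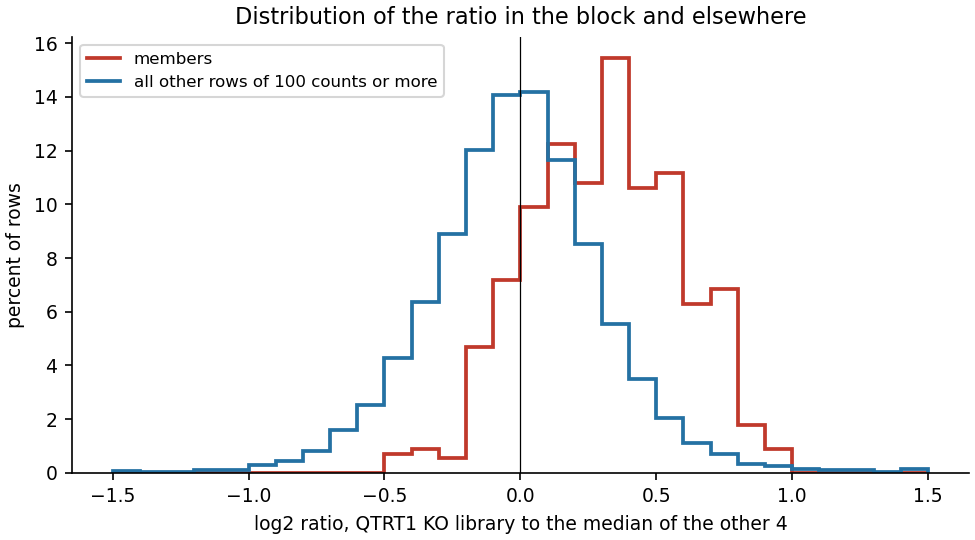
Percent of rows (vertical axis) by log2 ratio of the QTRT1 KO library to the median of the other 4 (horizontal axis, bins of 0.1, values past 1.5 in the end bins), for the 556 members and for the other 48139 rows of at least 100 counts. The members' curve has its median at 0.32 and that of the other rows at -0.01, with similar widths.

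The QTRT1 library was the highest of the 5 in 363 members, or 65.3%, while over all 48695 eligible rows it was the highest in 24.3%. It was the lowest of the 5 in 10 members (1.8%), against 25.4% of all eligible rows. Since the choice of rows used this contrast, nothing is read from these shares. By run, it was the highest in 61 of 85 and the lowest in 2, against 25.6% and 27.3% of all 8669 runs. The other libraries were each the highest in 19 to 69 members, QTGAL replicate 1 in the fewest and QTGAL replicate 2 in the most. QTMAN replicate 1 was the lowest library in 219 members. No share over all eligible rows stands beside these counts of the other libraries, so nothing is read from them.

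The shift appeared against each of the other libraries. The median member difference of the QTRT1 library was 0.34 from QTGAL replicate 1, 0.28 from QTGAL replicate 2, 0.36 from QTMAN replicate 1 and 0.26 from QTMAN replicate 2. Against QTGAL replicate 1, 490 of the 556 members were higher in the QTRT1 library, and against the other 3 libraries 448 to 468 were. These 4 comparisons share the QTRT1 library and do not repeat each other. Between any 2 of the other libraries the median member difference ran from -0.07 to 0.09. No pair of them lay as far apart over the members as QTRT1 lay from each. The rows were chosen for this contrast, so nothing is read from that order.

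By coding length, the members up to 100 codons had the lowest median ratio, 0.25 over 79 members, and those of over 300 and up to 1000 codons the highest, 0.34 over 227 members. The 219 members of over 100 and up to 300 codons had a median of 0.30, and the 31 members above 1000 codons one of 0.32. Rows outside the block had medians that rose with length, from the shortest to the longest class -0.08, -0.03, 0.02 and 0.04. The members thus lay 0.28 to 0.34 above the other rows of their own length class. The share of members in which the QTRT1 library was the highest was 46.8% up to 100 codons, 64.8% in the next class, 71.8% up to 1000 codons and 67.7% above. Over the other rows of these classes it was 17.6%, 21.3%, 26.7% and 31.6%, so it was lowest in the shortest class there too. The choice of rows used this contrast, and nothing is read from the members' shares. The median counting error was 0.21 in both classes up to 300 codons.

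With 1 row per run the length classes ordered differently, as the 6 runs up to 100 codons had a median of 0.36 and the 17 runs of over 100 and up to 300 codons one of 0.44. The 50 runs of over 300 and up to 1000 codons had 0.32 and the 12 runs above 1000 codons 0.31. The shortest class thus had the lowest median over all members but not over runs. Across members, Spearman's rho between ratio and length was 0.14, against 0.13 across the other rows. Across runs it was -0.16 in the block and 0.10 elsewhere, so rows and runs of the block went opposite ways with length. All 4 are descriptions over rows that can share reads.

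By abundance, the median ratio was 0.36 in the 199 members with fewer than 300 summed counts, 0.27 in the 223 with 300 to below 1000, 0.30 in the 87 with 1000 to below 3000 and 0.38 in the 47 with 3000 or more. Rows outside the block had medians between -0.03 and 0.01 in these classes. The ratio thus neither rose nor fell steadily with abundance, and Spearman's rho with the summed count was -0.02 across members. The interquartile range over members was 0.40, 0.48, 0.29 and 0.19 in the same order. In the most abundant class the median counting error was 0.041, and 45 of 47 members were above 0. These 47 members came from 12 runs whose ratios spanned -0.06 to 0.76, and 17 of them belong to 1 run, rows 158692 to 158717, with ratios from 0.26 to 0.42. The other 30 had a median of 0.32 and an interquartile range of 0.48, so the narrow range of the class rests on that run.

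**Figure D2:**
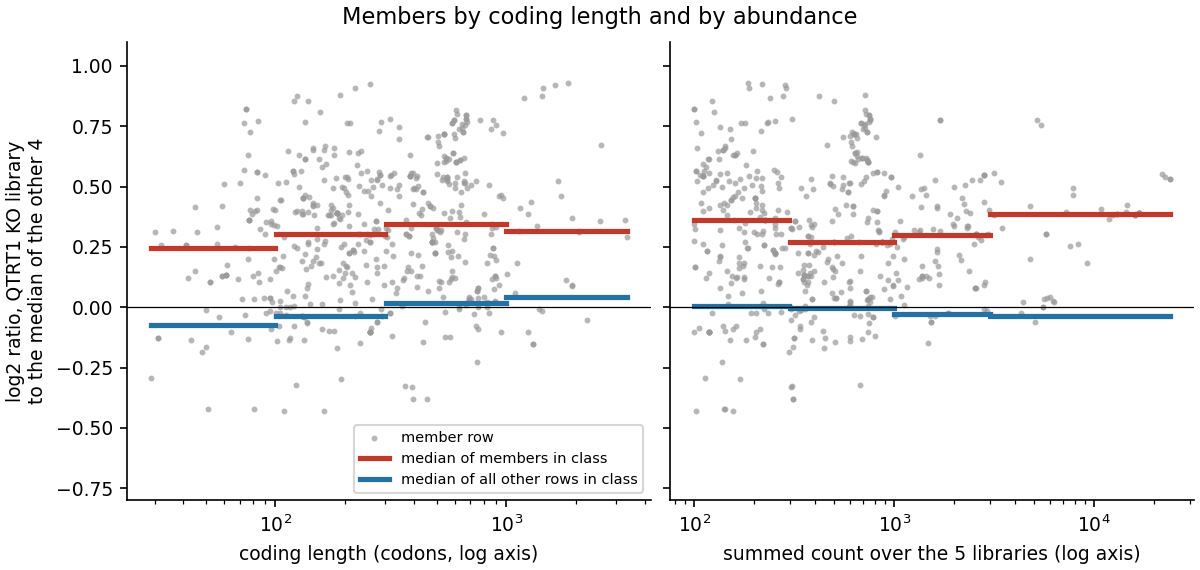
Log2 ratio of the QTRT1 KO library to the median of the other 4 for each member, by coding length in codons and by summed count over the 5 libraries, both on log axes. Red bars are the medians of the members in 4 classes and blue bars those of all other rows in the same class; the members' bars lie between 0.25 and 0.38 and the others between -0.08 and 0.04.

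At the count threshold, the 22 rows with 100 to 110 summed counts had a median ratio of 0.53, from -0.43 to 0.82. The 20 rows of the block with 90 to 99 counts, just outside, had a median of 0.15, from -0.44 to 0.64. All 369 rows with 1 to 99 counts had a median of 0.11, where the added 0.5 CPM pulls ratios towards 0.

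The run with the most footprints was that of row 158452, a coding sequence of 554 codons with 23911 counts. It had 347 CPM in the QTRT1 KO library, 232 and 253 CPM in the QTGAL libraries and 232 and 248 CPM in the QTMAN libraries. The QTRT1 library stood above all 4 others, whose own values spanned a narrow band, and the ratio was 0.53 with a counting error of 0.023.

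Rows 158693 and 158690, of 185 and 229 codons, came next with 16683 and 16103 counts. Row 158693 had 220 CPM in the QTRT1 KO library, 167 and 196 CPM in the QTGAL libraries and 166 and 169 CPM in the QTMAN libraries, a ratio of 0.39. Row 158690 had 212 CPM in the QTRT1 KO library, 162 and 189 CPM in QTGAL and 161 and 162 CPM in QTMAN, a ratio of 0.38. Their values ran almost in parallel in every library, so the 2 rows may share most of their footprints and are not counted as separate evidence. In both, QTGAL replicate 2 was the nearest to the QTRT1 library. Per length they were the densest of the member runs, at 99.2 and 77.3 CPM per 100 codons.

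Row 157895, of 907 codons, had the largest ratio among the 10 most abundant runs. It had 88.4 CPM in the QTRT1 KO library, 50.1 and 60.1 CPM in QTGAL and 50.8 and 53.5 CPM in QTMAN. All 4 other libraries lay well below the QTRT1 value, and the ratio was 0.76, a fold of 1.69.

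Row 158462, of 207 codons, had 110 CPM in the QTRT1 KO library, 75.0 and 86.8 CPM in QTGAL and 81.3 and 78.2 CPM in QTMAN, a ratio of 0.47. Row 158144, of 369 codons, had 73.0 CPM in the QTRT1 KO library, 56.9 and 54.1 CPM in QTGAL and 61.1 and 62.3 CPM in QTMAN, a ratio of 0.30. Row 157540, of 120 codons, had 92.6 CPM in the QTRT1 KO library, 83.0 and 74.3 CPM in QTGAL and 77.1 and 78.0 CPM in QTMAN, a ratio of 0.25. In these 3 runs the QTRT1 library was again the highest, by a smaller margin in row 157540.

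The remaining 3 of the 10 most abundant runs did not follow the others. Row 157936, of 1119 codons, had 107 CPM in the QTRT1 KO library, 87.2 and 93.3 CPM in QTGAL and 95.5 and 111 CPM in QTMAN, so that QTMAN replicate 2 was above the QTRT1 library although the ratio was 0.18. Row 158212, of 827 codons, had 68.0 CPM in the QTRT1 KO library, 65.8 and 58.4 CPM in QTGAL and 68.2 and 73.2 CPM in QTMAN, a ratio of 0.02. In both, the 2 QTMAN libraries were above the 2 QTGAL libraries. Row 157283, identifier uc002kqw.4 and 447 codons, had 52.5 CPM in the QTRT1 KO library, 53.5 and 56.2 CPM in QTGAL and 52.1 and 56.4 CPM in QTMAN. Its 5 values lay close together with the QTRT1 library second lowest, and its ratio was -0.06.

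**Figure D3:**
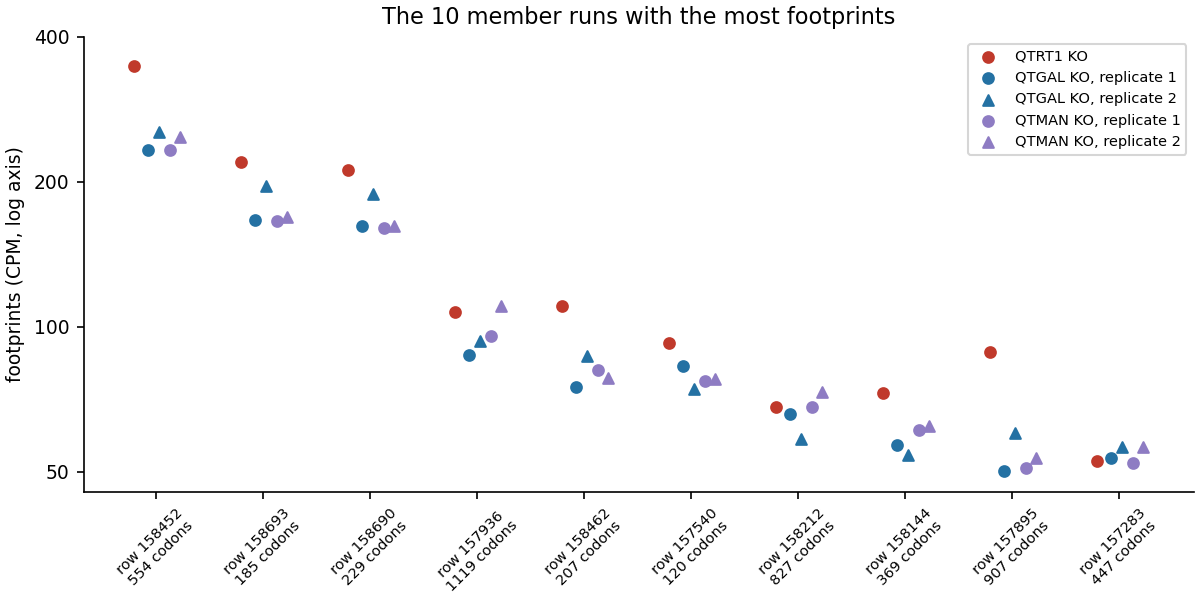
Footprints in CPM (log axis) in each of the 5 libraries for the 10 member runs with the most counts, in order of summed count, 1 point per library. The QTRT1 KO point is the highest in 7 of the 10 runs and lies among or below the others in rows 157936, 158212 and 157283.

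Among the 50 runs with at least 500 counts, the highest ratio was that of row 157585, identifier uc002ktt.2 and 596 codons. It had 28.8 CPM in the QTRT1 KO library, 13.3 and 16.5 CPM in QTGAL and 16.7 and 18.3 CPM in QTMAN. The QTRT1 value was above every other library, and the ratio was 0.78, a fold of 1.71. Row 158973, identifier uc002lga.4 and 774 codons, followed with 12.9 CPM in the QTRT1 KO library, 7.84 and 9.86 CPM in QTGAL and 5.50 and 6.80 CPM in QTMAN, also a fold of 1.71. There both QTGAL libraries lay above both QTMAN libraries as well. Row 157895, described above, was the third highest.

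The lowest ratio among these 50 runs was that of row 157771, identifier uc002kvh.5 and 321 codons, with 8.05 CPM in the QTRT1 KO library, 9.19 and 9.86 CPM in QTGAL and 7.71 and 8.36 CPM in QTMAN. Its ratio of -0.12 was within its counting error of 0.15, and the QTRT1 library lay between the QTMAN libraries. Row 157283 was the next lowest. Row 157953, of 1436 codons, had 30.8 CPM in the QTRT1 KO library, 31.4 and 31.9 CPM in QTGAL and 30.7 CPM in both QTMAN libraries, a ratio of -0.01. Runs with no difference of the QTRT1 library thus lay between runs with a fold of over 1.5, as row 157953 and row 157895 show.

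In some large runs, rows of 1 run resembled each other more than members as a whole did. The largest run, rows 158949 to 159015, held 53 members of 82 to 774 codons, whose ratios ran from 0.40 to 0.91 with a median of 0.72 and an SD of 0.10. The SD over all 556 members was 0.28. Other runs were nearly as wide, as the 19 members of rows 158252 to 158272 had an SD of 0.23. The run of rows 158760 to 158801 held 26 members, all between 0.34 and 0.92. The run of rows 158187 to 158233 held 31 members from -0.32 to 0.20, with a median of -0.01, and the run of rows 158062 to 158097 held 25 members from -0.43 to 0.17, with a median of -0.02. The 4 largest runs together hold 135 members and weigh on any count over rows. Without the 53 rows of the largest run the member median was 0.28.

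The ratio was not even along the block. In successive segments of 10 runs, 15 in the last, the median was 0.45 from row 157090, 0.30 from row 157340, 0.27 from row 157523, 0.19 from row 157717, 0.26 from row 157946, 0.22 from row 158179, 0.46 from row 158445 and 0.49 from row 158636. The shift was thus larger at both ends than in the middle. The 10 runs at or below 0 all lay between rows 157283 and 158031, where 1 of them, row 157283, had as many as 5050 counts. From row 158179 on, all 35 runs were above 0, with a median of 0.42, an SD of 0.20 and a lowest value of 0.02, and the QTRT1 library was the highest in 29. Each run enters by its row with the most counts, and the 31 members of the run of rows 158187 to 158233 had a median of -0.01. In the 50 runs before row 158179, 40 were above 0, with a median of 0.28 and an SD of 0.28, and the QTRT1 library was the highest in 32. In the last 15 runs it was the highest in all 15, which include the identical runs of rows 158688 and 158691 and the near-parallel rows 158690 and 158693.

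The shift neither started nor ended at the limits of the block. Row 157079, of 224 codons, the last run of at least 500 counts before the block, had 8.90 CPM in the QTRT1 KO library, 4.74 and 4.13 CPM in QTGAL and 6.55 and 5.32 CPM in QTMAN, a ratio of 0.76. Row 157090, the first of the block with 951 codons, had 12.6 CPM in the QTRT1 KO library, 9.23 and 8.76 CPM in QTGAL and 8.28 and 9.54 CPM in QTMAN, a ratio of 0.46. The QTRT1 library was the highest on both sides of this limit.

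At the other limit, row 159053, the last of the block with 290 codons, had 32.1 CPM in the QTRT1 KO library, 24.2 and 22.4 CPM in QTGAL and 21.4 and 22.4 CPM in QTMAN, a ratio of 0.51. Row 159059, of 282 codons and just outside, had 29.2 CPM in the QTRT1 KO library, 22.3 and 21.4 CPM in QTGAL and 20.3 and 20.7 CPM in QTMAN, a ratio of 0.46. Their values ran almost in parallel in every library, so the 2 rows may share most of their footprints. The lack of a step between them thus cannot show whether the shift goes on past this limit. The next run, row 159065 of 1458 codons, had a ratio of 0.50.

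To describe where the shift starts and ends, 0.16, which is 1/2 of the member median, was subtracted from each run's ratio, and the contiguous stretch with the largest sum that overlaps the block was taken. It ran from row 156759 to row 160042 and held 124 runs and 802 rows, with a median ratio over runs of 0.39. Of these runs, 112 were above 0 and the QTRT1 library was the highest in 96. The 12 runs of the stretch that precede the block had a median of 0.57 and were highest in the QTRT1 library in all 12. The 27 runs of the stretch that follow the block had a median of 0.45, with 25 above 0 and 23 highest in the QTRT1 library. The ends of the stretch were picked for their values, so no test goes with them. The run just before the start, row 156756 with 1054 codons and 185 counts, had 0.498 CPM in the QTRT1 KO library, 1.47 and 2.02 CPM in QTGAL and 2.36 and 3.03 CPM in QTMAN. Its ratio of -1.43 stood far below its neighbours, and with a running median of 25 runs the shift began earlier, at row 156469.

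**Figure D4:**
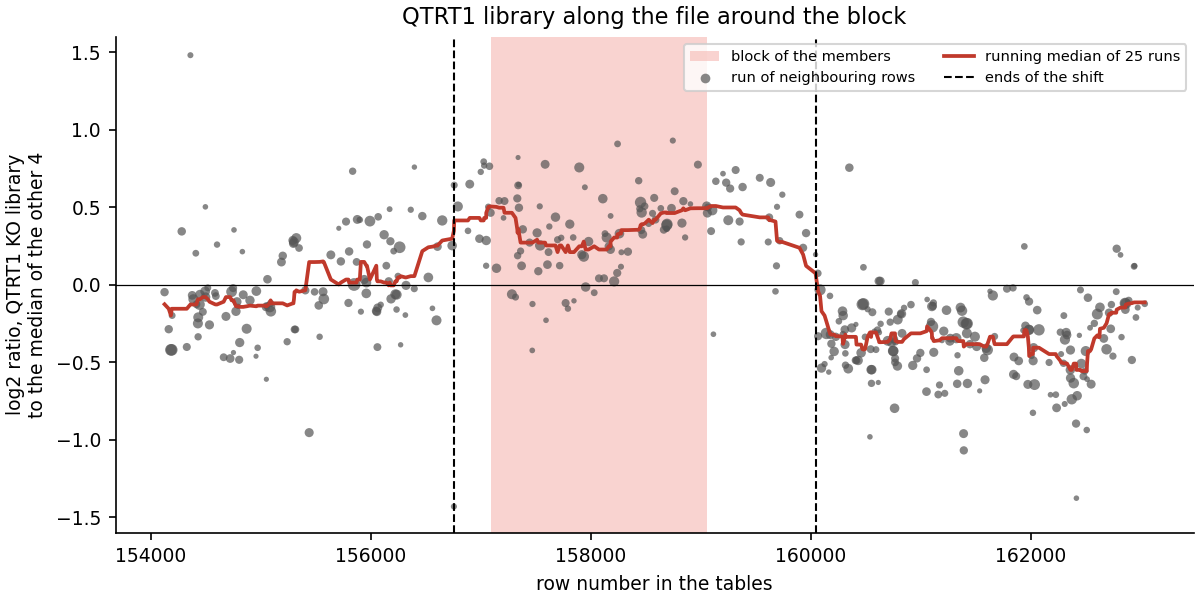
Log2 ratio of the QTRT1 KO library to the median of the other 4 (vertical axis) by row number in the tables (horizontal axis), 1 point per run with larger points for more counts, and the running median of 25 runs in red. The block is shaded and the dashed lines mark rows 156759 and 160042; the running median rises to the left of the block, stays above 0 across it and drops to about -0.3 right of the second line.

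The ends of the stretch were picked by the ratio, so a step at them follows in part from that choice. The median was 0.15 over the 10 runs before the stretch and 0.57 over its first 10 runs. It was 0.31 over the last 10 runs of the stretch and -0.33 over the 10 runs after its end. In segments of 10 runs after the block the median went from 0.49 to 0.42 and 0.26 before it reached -0.41 from row 160096. In windows of 25 runs before the block the median was -0.14 from row 154750, 0.15 from row 155293, 0.01 from row 155911 and 0.35 from row 156315. The 50 runs just before the stretch had a median of 0.05, with 30 above 0. After the block, the window from row 159059 had 0.46 and the next 3 windows, from rows 159956, 160370 and 160697, had -0.32, -0.31 and -0.37. The 50 runs just after the stretch had a median of -0.33, with 5 above 0 and the QTRT1 library the lowest of the 5 in 31. The row order thus passes, at about row 160042, from a region higher in the QTRT1 library into a region lower in it.

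Single runs show this change. Row 159956, of 1132 codons, had 14.0 CPM in the QTRT1 KO library, 9.90 and 11.5 CPM in QTGAL and 10.5 and 11.6 CPM in QTMAN, a ratio of 0.33. Row 160096, of 1231 codons, had 20.1 CPM in the QTRT1 KO library, 29.8 and 29.1 CPM in QTGAL and 24.4 and 31.8 CPM in QTMAN, a ratio of -0.54. Row 160140, of 558 codons and 25700 counts, had 232 CPM in the QTRT1 KO library, 281 and 297 CPM in QTGAL and 251 and 305 CPM in QTMAN, a ratio of -0.31. The QTRT1 library was the highest in the first and the lowest in the other 2.

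The start also differed in how the other libraries lay. In the 50 runs just before the stretch the median QTGAL minus QTMAN difference was -0.30, and both QTGAL libraries were below both QTMAN libraries in 33 runs (66%) and above them in 2 (4%). Over all runs these shares were 17.2% and 19.8%. In the 124 runs of the stretch that difference was 0.01, with both QTGAL libraries below in 29 runs (23.4%) and above in 30 (24.2%). Their part in the place of the start was not tested.

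**Figure D5:**
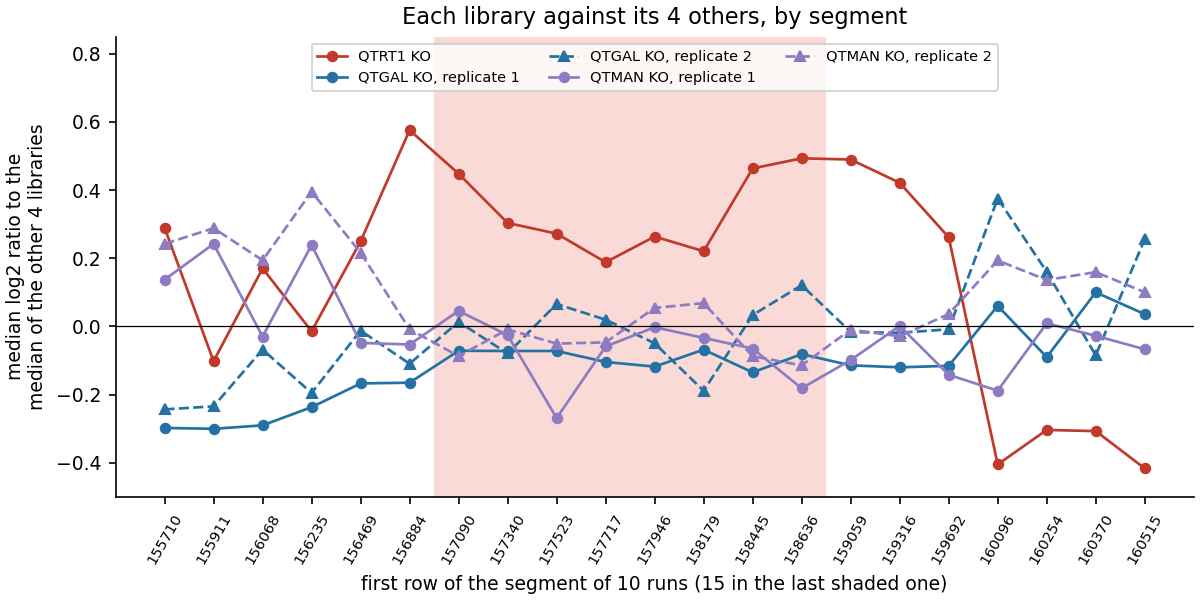
Median log2 ratio of each library to the median of its 4 others (vertical axis) in segments of 10 neighbouring runs, 15 in the last shaded one, placed by the first row of the segment (horizontal axis), with the block shaded and 1 line per library. The QTRT1 KO line lies above the other 4 in every shaded segment, with medians from 0.19 to 0.49, and becomes the lowest from row 160096 on.

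Over the tables as a whole, windows of 50 runs showed how far such a stretch stood from the rest. In 173 windows the median ratio ran from -0.46 to 0.46, with 5% of windows below -0.31 and 5% above 0.15. The highest window lay at rows 158240 to 159634, across the end of the block, and was the only window above 0.3. The windows at rows 157207 to 158212, with 0.26, and rows 155961 to 157167, with 0.24, were the next highest. The lowest window, at rows 144614 to 145550, was as far below 0 as the highest was above it. These windows include the values that chose the members, so their order is a description.

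The difference of the QTRT1 library from the average over both other genotypes was fitted with edgeR over 60966 rows, with 1 QTRT1 library and 2 residual degrees of freedom from the other genotypes. Over all rows, 0.121% were higher at an adjusted p under 0.05 by edgeR's quasi-likelihood test. No member reached that threshold, the smallest adjusted p by edgeR being 0.0655, for row 157895. This count moved with the fit, as did the count over all rows. With the replicate number as a block, edgeR called 28 members higher, against 309 of all 60966 rows. With no filter on low counts it called 36, against 712 of all 79348 rows. Leaving out 1 of the other libraries also moved the count in some fits, each of which has only 1 library in 2 of the genotypes. At an unadjusted p under 0.05, edgeR placed 177 members higher (31.8%) and 0 lower, against 5.69% and 5.55% of all rows tested. DESeq2, which gave an adjusted p to 219 members, called 8 of them higher, against 0.332% of all rows it gave one. These counts use the contrast that chose the rows, and nothing is read from them. The fitted median log2 difference over members was 0.34, with a median standard error of 0.23, and 486 of 556 were above 0.

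QTGAL against QTMAN is a contrast that the choice of rows did not use. No member differed at an adjusted p under 0.05 by edgeR, as did 0% of all rows tested, and the smallest adjusted p among members was 0.596. DESeq2 called 0 of the 43 members to which it gave an adjusted p, against 0.284% of all such rows. At an unadjusted p under 0.05, edgeR placed 39 members (7.01%) higher in QTGAL and 12 (2.16%) lower, against 3.19% and 3.3% of all rows. Of those 39, 25 were rows of the single 53-row run described above, and 14 lay elsewhere. Among the 85 runs 6 (7.06%) were higher and 2 (2.35%) lower, against 3.74% and 3.41% of all runs. The median absolute log2 difference was 0.18 over members and 0.17 over all rows tested. The rows tested include rows below 100 summed counts, and their median standard error was 0.24, against 0.21 over members. In an edgeR fit of rows with at least 100 counts, 38 members were higher and 12 lower at an unadjusted p under 0.05. Over all 48695 rows of that fit, 1744 were higher and 1581 lower.

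Both QTGAL libraries lay above both QTMAN libraries in 134 members (24.1%), against 18.6% of all eligible rows, and below them in 113 (20.3%), against 18.4%. The block median of each library against the mean of the 4 was -0.02 and 0.05 for the QTGAL libraries and -0.05 and 0.03 for the QTMAN libraries, so the 2 genotypes overlapped. Their difference was 0.03 with p = 0.667 by a two-sided exact permutation test of 2 against 2 libraries, which cannot give a p below 0.333.

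Single members had the following differences. Row 158452 differed by 0.01 ± 0.10 (log2, standard error) between QTGAL and QTMAN, with an adjusted p of 0.990 by edgeR. Row 157585 differed by -0.24 ± 0.15, with an adjusted p of 0.856 by edgeR. Row 158973 differed by 0.50 ± 0.19, with an adjusted p of 0.746 by edgeR, and its 2 QTGAL libraries did not overlap the QTMAN ones. The smallest unadjusted p, 0.00295 by edgeR, was that of row 157670 with 179 codons, which had 2.35 CPM in the QTRT1 KO library, 1.09 and 1.26 CPM in QTGAL and 2.73 and 2.21 CPM in QTMAN. It was lower in both QTGAL libraries than in the other 3, and its adjusted p was the 0.596 given above.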

How the data were processed

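Each deposited table holds whole-number footprint counts per transcript for 1 library, with an identifier and a length, as the authors deposited them and in 1 shared row order. The submitters' processing notes name CASAVA, bcl2fastq 2.19, STAR 2.7.0a and build hg38; how footprints were assigned to transcripts, and with which annotation and strand setting, is not given in the sources used here. Reads shared between isoforms may be counted in several rows. From the counts, CPM was computed with TMM effective library sizes (edgeR 4.0.16, R 4.3.3), and quasi-likelihood tests were fitted over all rows that passed filterByExpr, with 1 mean per genotype and Benjamini-Hochberg adjustment. DESeq2 1.42.0 was an alternative. The named rows were the 10 runs with the most counts, the 3 highest and 3 lowest runs of at least 500 counts, and runs at the limits; row 157670 and the runs at the ends of the stretch were singled out after their values were seen. The members and lists were chosen with earlier results of these data known. Gene lists could not be applied without gene names. The fits and the search for the ends were tested on simulated data.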

Additional observations from a re-analysis of the deposited data

How the results depend on the processing

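Of 65 alternative values, 54 were classed as the same, 9 as moved and 2 as reversed in direction. The class of the same was wide. It took in ends of the stretch within 25 runs, and QTGAL minus QTMAN differences of 0.012 and 0.070 against 0.03. Among those classed as moved, the member median and 2 length classes kept their direction and changed in size. The member median ratio of 0.32 became 0.25 with a pseudocount of 2 CPM, was 0.36 with 1 row per run, and lay between 0.29 and 0.34 under the remaining scalings, count minimums, references and left-out libraries. The median in members up to 100 codons was 0.36 and in those of over 100 and up to 300 codons 0.44 with 1 row per run. The count of members higher in the QTRT1 library against the mean of the other genotypes was 0 in edgeR. It was 36 with no filter on low counts, against 712 of all 79348 rows, and 28 with a replicate block, against 309 of 60966. DESeq2 gave 8 of 219 members, against 69 of 20778 rows. Leaving out 1 library moved this count in some fits, each of which has only 1 library in 2 of the genotypes. The QTGAL minus QTMAN block difference of 0.03 was -0.022 without QTGAL replicate 2 and -0.023 without QTMAN replicate 1. Its range over left-out libraries was -0.023 to 0.070. It was 0.046 with total counts, 0.012 with at least 30 counts and 0.03 with the replicate block. No member was called between QTGAL and QTMAN in any fit of all 5 libraries. Over all rows, edgeR called 94 higher and 188 lower of 79348 with no filter on low counts. With the replicate block it called 12 higher and 37 lower of 60966. Its other fits of all 5 libraries called 0, and DESeq2 called 12 of 4231 rows. Calls were thus rare over all rows, and nothing is read from the 0 among members. Whether the replicate numbers mark a pairing cannot be told from only 2 pairs. The same-numbered libraries' deviations correlated at 0.187, and in the block median replicate 2 lay above replicate 1 in both genotypes. The first row of the stretch was 156469 with a running median and 156606 with every row, and its last row 159929 and 159939. The cause of these changes was not tested. Depth limits single members: their median counting error, 0.17, is more than 1/2 of the median shift.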
